A study of Saccharomyces cerevisiae with 22 samples.

Results

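Xrn1-sensitive unstable transcripts (XUTs) are noncoding RNAs of budding yeast, Saccharomyces cerevisiae, listed under names that give a chromosome, a strand letter and a number. All rows of the total RNA tables whose names begin with XUT_ were taken, and those with at least 1 read in at least 1 library were kept. This gave 1204 of the 1658 listed XUTs, out of 18222 features of all kinds.

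The cells were haploid MATa strains with ribosomal DNA (rDNA) of different copy number, the repeated rRNA genes of chromosome XII, and every strain carries the genotype MATa his3d1 lyp1d0 can1d::STE2pr-spHIS5. Total RNA, without polyA selection, was sequenced from 10 strains, which the labels give 72, 84, 118, 129, 147, 156, 197, 208, 224 and 237 repeats. The strain names fall in series, with 72, 129 and 156 repeats in CGY24, 118, 147 and 237 in CGY20, 197, 208 and 224 in CGY28, and 84 in CGY29. Each strain had 1 library and the labels name no separate cultures, so tests measure the spread between strains, and a strain and its library cannot be told apart. The same 10 strains also had polyA-selected libraries of normal recovery, whose tables list 0 XUT rows and serve here only for protein-coding genes. A further pair of strains, with 104 and 166 repeats and low polyA recovery, was not used. The labels list no deletion of XRN1, and XRN1 had 268 to 350 reads in the total RNA libraries.

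As background, XUTs are made by RNA polymerase II, capped and polyadenylated, and exported to the cytoplasm, where the 5′ to 3′ exonuclease Xrn1 destroys them after decapping. They were catalogued as the RNAs that accumulate in cells lacking Xrn1, and most run antisense to protein-coding genes. Of the other noncoding classes, stable unannotated transcripts (SUTs) are seen in wild-type cells and cryptic unstable transcripts (CUTs) are degraded in the nucleus by the exosome.

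Recovered reads, summed over all rows, came to 6495626 to 7934346 per library, of which 377966 to 465601 lay outside the rDNA. The reference lists repeated copies of the rDNA, and rows of the same spacer, NTS2-1 and NTS2-2, had equal values. Whether an rDNA read was counted at each copy is not stated, so the totals may count such reads more than once. Of the markers of mating type, 7 of 7 MATa genes were read, with 750 to 1067 reads in sum per library. The 4 MATalpha genes had 12 to 25 reads in sum, with MF(ALPHA)2 at 0, and 6 meiosis genes had 4 to 14.

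XUTs were scarce in every strain. They took 757 to 1037 reads per library, a median share of 0.205% of the reads outside the rDNA (0.207% ± 0.0101 SD, n = 10). By strain the share was 0.196% at 72 repeats, 0.194% at 84, 0.203% at 118, 0.206% at 129, 0.210% at 147, 0.200% at 156, 0.216% at 197, 0.204% at 208, 0.212% at 224 and 0.228% at 237. The strains with 84 and 72 repeats were lowest and the strain with 237 was highest. The 95% Clopper-Pearson intervals of these ends, 0.182% to 0.207% at 84 repeats and 0.214% to 0.242% at 237, did not overlap, while neighbours in the order of shares lay within each other's intervals. These intervals cover counting error only, and make no allowance for these strains having been picked as the lowest and highest of the 10. The share varied 2.23 times as much as read counting alone gives (variance over counting variance, where 1 is counting error only), and 1.62 times once the rDNA transcript XUT_12F-188, described below, was left out. Within CGY20 the share was 0.203% at 118 repeats, 0.210% at 147 and 0.228% at 237. Within CGY28 it was 0.216% at 197, 0.204% at 208 and 0.212% at 224. Within CGY24 it was 0.196% at 72, 0.206% at 129 and 0.200% at 156, so only CGY20 ran in the order of array length, and no test of this summed share was made.

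**Figure D1:**
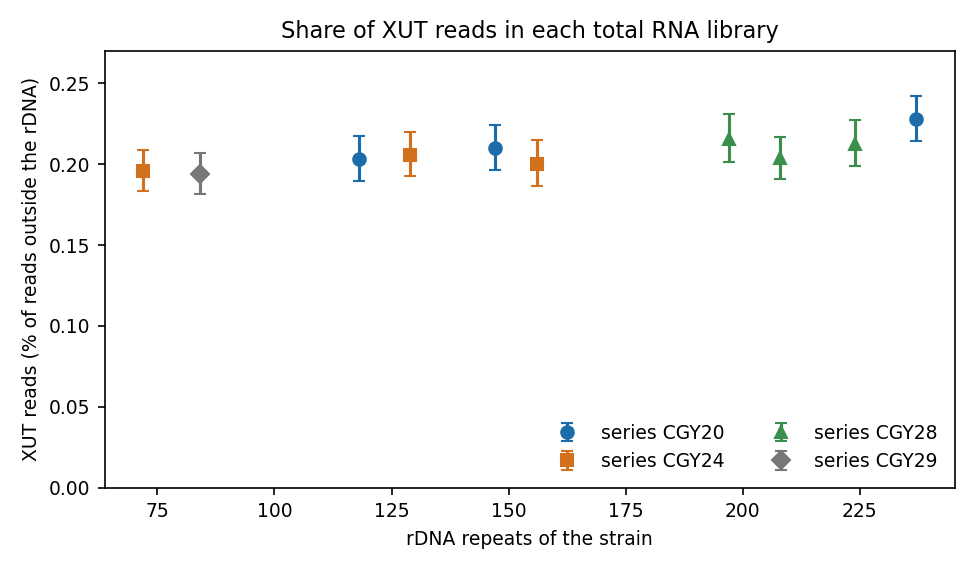
Share of reads outside the rDNA that fell on XUTs (y axis, percent) against the strain's number of rDNA repeats (x axis), 1 point per library, coloured by strain series. Bars are 95% Clopper-Pearson intervals. The shares lie between 0.194% and 0.228%, with the strain of 237 repeats highest.

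The number of different XUTs seen in a library was 396 to 499 (median 442.5). Thinned to an equal depth of 377966 reads it would be 388 to 445, lowest at 72 repeats and highest at 237, whereas the unthinned number was lowest at 156. Only 78 XUTs had a read in all 10 libraries, while 319 had one in a single library. The 454 XUTs with no read had 0 of 4302626 reads pooled over libraries, which allows up to 3 reads each over all libraries, or 0.3 per library. They are not detected at this depth rather than absent. Of the 1204 detected, 962 had a mean under 1 read per library, 242 had at least 1, 12 at least 5 and 3 at least 10.

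Other noncoding classes of the same libraries give the scale. XUTs were detected more widely than SUTs (909 of 1836, 49.5%) and CUTs (656 of 2421, 27.1%), and less widely than rows named as possible antisense of a gene (801 of 1038, 77.2%). The median share of reads was 0.158% for SUTs, 0.705% for CUTs and 0.683% for the antisense rows, against 0.205% for XUTs. CUT reads were concentrated, with 88.2% on the 12 most abundant, whereas the 12 most abundant XUTs held 18.2% of XUT reads. The 100 most abundant XUTs held 44.4%. Rows of different classes can overlap. XUT_10F-55 had the same 10 values as the antisense row of FAR1, which encodes a cyclin-dependent kinase inhibitor of the pheromone response, with 22 reads in all. XUT_4R-506 had those of SUT485, with 27 reads. Among the XUTs with 20 reads or more these were the only pairs with equal values. The files do not say whether a read in an overlap was counted at each row.

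The names place 846 listed XUTs on the F strand and 812 on the R strand, read here as forward and reverse. Of these, 608 and 596 were detected. The F strand held 4693 reads (52.8%) and the R strand 4203 (47.2%), and the F share ranged from 47.5% at 208 repeats to 56.3% at 197. Without XUT_9F-4 and XUT_12F-188, which are both on the F strand, that strand held 47.7%. No XUT of the R strand was left out in turn, so this shift could only lower the F share.

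The tables give no coordinates, but their rows run in genome order: 6031 of 6035 neighbouring pairs of annotated reading frames were in ascending start order, and the chromosome in the name of all 1658 XUTs matched a neighbouring frame. Positions were therefore read from the neighbouring rows, with frame coordinates from the RefSeq annotation of the R64 assembly (sacCer3). The frame listed just before an XUT lay on the opposite strand for 1321 of 1658 (79.7%), against 51.6% of neighbouring pairs of frames. The figure was 943 of 1204 (78.3%) for detected XUTs and 378 of 454 (83.3%) for the undetected ones. The opposite-strand frame had a median of 10.5 reads per library beside detected XUTs and 10.75 beside undetected ones, so the frame's own level was nearly the same in both. Row order alone does not show whether an XUT overlaps the frame listed before it, here or below.

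Chromosomes IX and I stood above the other 14. Chromosome IX held 1065 XUT reads (11.97% of the total), or 24.211 per library and 100 kb, but 62.9% of them belonged to XUT_9F-4, and without it the density was 8.98. Chromosome I held 493 reads on 34 detected of 37 listed XUTs (91.9%), or 21.4 per library and 100 kb. Its density was still 17.3 without its leading member, XUT_1R-18, and the next chromosome, V, stood at 9.97. Chromosome VI was lowest, with 108 reads and 3.998 per 100 kb. Reading frames of chromosome I were also densely read, at 4562 reads per library and 100 kb, second to chromosome XII, whereas those of chromosome IX were the least densely read, at 1839. The median frame of chromosome I had 9.5 reads per library, the lowest of all chromosomes, with chromosome IX next at 10.8. The frame density of chromosome I thus does not describe its typical frame.

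**Figure D2:**
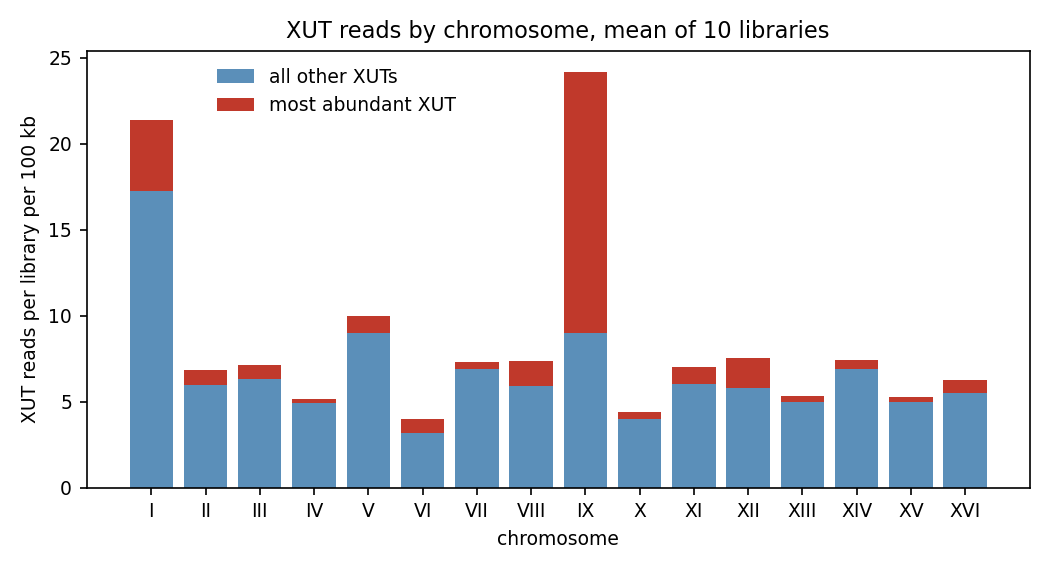
XUT reads per library and 100 kb of chromosome (y axis) for each of the 16 chromosomes (x axis), as the mean of 10 libraries. Red marks the most abundant XUT of each chromosome and blue all others. Chromosome IX (24.211) falls to 8.98 without XUT_9F-4, while chromosome I (21.4) stays at 17.3 without its leading XUT.

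Chromosome I gave 5 of the 30 most abundant XUTs. Beside XUT_1R-18 and XUT_1F-4, described below, these were XUT_1F-89 with 1 to 8 reads per library (median 2.5), XUT_1F-90 with 2 to 9 (median 4) and XUT_1F-93 with 0 to 8 (median 5). The chromosome's XUT total ranged from 38 reads at 224 repeats to 61 at 208, both strains of CGY28.

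XUTs near chromosome ends carried more reads on average than the rest. Within 30 kb of an end 152 were listed and 117 detected, and they held 20.3% of XUT reads. Their mean was 1.19 reads per library against 0.471 beyond 30 kb, and 0.752 against 0.459 without XUT_9F-4 and XUT_12F-188. Medians were closer, at 0.3 and 0.2 reads, so a minority of XUTs carried the difference in means. Of the 12 most abundant XUTs, 4 lay within 30 kb of an end.

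The most abundant XUT was XUT_9F-4, on the forward strand of chromosome IX. It had 86 reads at 72 repeats, 58 at 84, 74 at 118, 71 at 129, 74 at 147, 68 at 156, 67 at 197, 47 at 208, 51 at 224 and 74 at 237 (67.0 ± 11.8 SD, n = 10). It was the leading XUT in every library and alone made 7.53% of all XUT reads. It is listed just after CSS1 (YIL169C, chromosome IX, 23119 to 26106, reverse strand) and before SDL1 (YIL167W, 29032 to 30048). The CSS1 frame on the other strand had 0 to 3 reads per library, so the XUT exceeded that frame in all 10 strains. Whether the XUT and the frame overlap is not known from the row order. A separate row for possible antisense of YIL169C had 2 to 22 reads. The spread of XUT_9F-4 was 2.40 times counting variance, and its fewest reads came from 208 and 224 repeats. Scaled for depth the lowest were 208 repeats, with a normalised read count of 46.1, 84 with 51.8 and 224 with 53.2.

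XUT_12R-299, on the reverse strand of chromosome XII, followed in the order of medians. It had 19 reads at 72 repeats, 15 at 84, 15 at 118, 10 at 129, 11 at 147, 18 at 156, 9 at 197, 21 at 208, 8 at 224 and 19 at 237. Short and long arrays were mixed at both ends of that range, and the variance was 1.30 times counting variance. It is listed after FKS1 (YLR342W, XII, 809997 to 815627), which encodes a catalytic subunit of cell wall glucan synthase and runs on the other strand with 445 to 695 reads. The libraries are strand-specific per the labels' protocols, but the strand setting of the counting is not given in the sources used here. Reads of XUT_12R-299 therefore cannot be fully told apart from those of FKS1.

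XUT_1R-18, on the reverse strand of chromosome I, had 11 reads at 72 repeats, 15 at 84, 11 at 118, 9 at 129, 7 at 147, 5 at 156, 3 at 197, 12 at 208, 10 at 224 and 12 at 237. Its variance was 1.01 times counting variance, so no spread beyond counting error was seen. With so few reads a moderate spread between strains could go unseen. It lies after GDH3 (YAL062W, I, 31567 to 32940), an NADP-dependent glutamate dehydrogenase, which had 0 to 5 reads on the other strand. The row of possible antisense to GDH3 had 5 to 13 reads. The median of the GDH3 frame was 0.5 reads, against 10.5 for the XUT listed after it.

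The other 8 of the 12 had means of 5.1 to 8.1 reads per library and variances of 0.714 to 2.18 times counting variance. XUT_8R-129 (5 to 13 reads) is listed after the kinase gene KSP1 on the same strand. XUT_16R-8 (3 to 11) is listed after FDH2, a formate dehydrogenase frame on the other strand with 0 or 1 read. XUT_2R-85 (3 to 13) follows PDR3 on the other strand, a transcription factor of drug resistance with 8 to 18. XUT_1F-4 had 6 reads at 72 repeats, 16 at 84, 8 at 118, 9 at 129, 5 at 147, 8 at 156, 2 at 197, 7 at 208, 1 at 224 and 8 at 237. It is listed after TDA8, a frame on the other strand with 0 reads in every library. The extremes of XUT_1F-4 were the single CGY29 strain and a CGY28 strain, and its variance ratio, 2.18, was the highest of these 8. XUT_11R-124 (3 to 11) follows STB6 on the other strand, named for binding Sin3. The row after this XUT is that of possible antisense to YKL071W. XUT_12R-235 (1 to 9) follows HAP1 on the other strand, the heme-responsive transcription factor, with 162 to 250 reads. XUT_5F-7 (1 to 11) follows DSF1 on the same strand and precedes HXT13, of the hexose transporter family. XUT_5F-139 (2 to 8) follows VHR2, which is on the other strand. Of all 12, 9 (75.0%) had the frame listed before them on the opposite strand. The levels of these opposite frames ran from 0 reads at TDA8 to a median of 599.5 at FKS1.

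**Figure D3:**
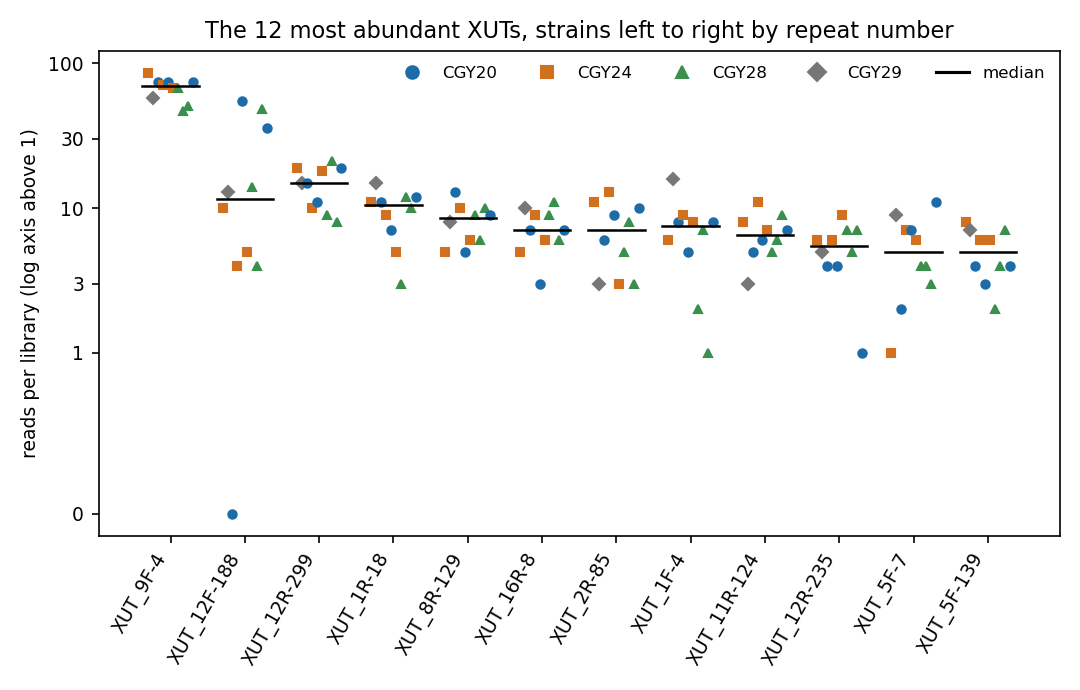
Reads per library (y axis, logarithmic above 1) of the 12 XUTs with the highest mean share, in order of that share. Each point is 1 strain, placed from left to right by repeat number and coloured by series, and the black line is the median. XUT_9F-4 stays at 47 to 86 reads, while XUT_12F-188 runs from 0 to 55.

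XUT_12F-188 differed from the other XUTs both in place and in spread. Its row lies inside the rDNA, after that of the spacer NTS1-2 and before that of ETS2-2. In genome order its left end thus falls in the spacer between the 5S gene RDN5-1 (XII, 459676 to 459796) and the 3′ end of the next 35S unit, RDN37-2 (XII, 460712 to 467569), 915 bases from 459797 to 460711. As background, this spacer holds the replication fork barrier, and a bidirectional RNA polymerase II promoter there is silenced by Sir2, a histone deacetylase. The first 300 bases of this spacer, next to the 5S gene, are shown (forward strand, sacCer3, chrXII:459797-460096, from RefSeq). Row order does not tell whether the left end of XUT_12F-188 lies in these bases or further along the 915. The printed bases do not mark the transcript's start, which is not known from the sources used here.

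NTS1 spacer, first 300 bases: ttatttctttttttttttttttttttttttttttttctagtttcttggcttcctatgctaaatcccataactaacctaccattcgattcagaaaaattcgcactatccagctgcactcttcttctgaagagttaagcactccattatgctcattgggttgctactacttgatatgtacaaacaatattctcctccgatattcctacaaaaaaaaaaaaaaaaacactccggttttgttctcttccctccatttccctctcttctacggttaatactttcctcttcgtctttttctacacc

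The stretch holds a long run of T close to the 5S gene and is 34.0% G or C, against 38.3% over the 16 chromosomes. It occurs once in the reference genome, whereas the spacer on the other side of the 5S gene (XII, 458433 to 459675) occurs in 2 exact copies.

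XUT_12F-188 had 10 reads at 72 repeats, 13 at 84, 0 at 118, 4 at 129, 55 at 147, 5 at 156, 14 at 197, 4 at 208, 48 at 224 and 36 at 237. The strains with 147, 224 and 237 repeats held 139 of its 189 reads (73.5%), and no other strain passed 14. High and low strains did not sort by array length: 147 repeats was highest and 156 and 208 were among the lowest. Nor did they sort by series, since CGY20 held both the 0 and the 55, and CGY28 both 4 and 48. The 3 CGY24 strains were all low, at 4 to 10 reads. The variance was 21.4 times counting variance, and 18.1 to 24.6 times with any single strain left out. Its part of all XUT reads ran from 0% to 6.17%.

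The array offers as many copies of the spacer as it has repeats, so the reads were also set against the repeat number. Per 100 repeats there were 13.9 reads at 72, 15.5 at 84, 0 at 118, 3.10 at 129, 37.4 at 147, 3.21 at 156, 7.11 at 197, 1.92 at 208, 21.4 at 224 and 15.2 at 237. On this scale the strain of 237 repeats lay beside those of 72 and 84, and 147 and 224 remained highest.

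The other spacer of the repeat varied alongside. NTS2-1, whose values equal those of NTS2-2, had 22 reads at 72 repeats, 28 at 84, 9 at 118, 8 at 129, 180 at 147, 11 at 156, 64 at 197, 4 at 208, 99 at 224 and 95 at 237. The same 3 strains were highest, 197 repeats came next in both, and 208 repeats was lowest in NTS2-1. The samples form a high and a low cluster in XUT_12F-188, so no correlation over them is given. NTS1-2 itself had few reads, 0 to 8, with the highest counts at 197 repeats (8), 237 (7), 224 (6) and 147 (5). The 5S gene did not follow this order, with its highest count, 677, at 208 repeats. In the polyA libraries of the same strains SIR2 stood at 19.4 TPM at 147 repeats, 19.0 at 224 and 19.8 at 237, and also at 19.8 at 197. SIR2 stood at 13.8 TPM at 118 repeats, 15.6 at 129, 16.3 at 156 and 14.8 at 208, the strains with the fewest reads of XUT_12F-188. The lowest SIR2 values, 11.0 and 9.81 TPM, were those of 72 and 84 repeats. A part of SIR2 in the level of XUT_12F-188 was not tested.

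**Figure D4:**
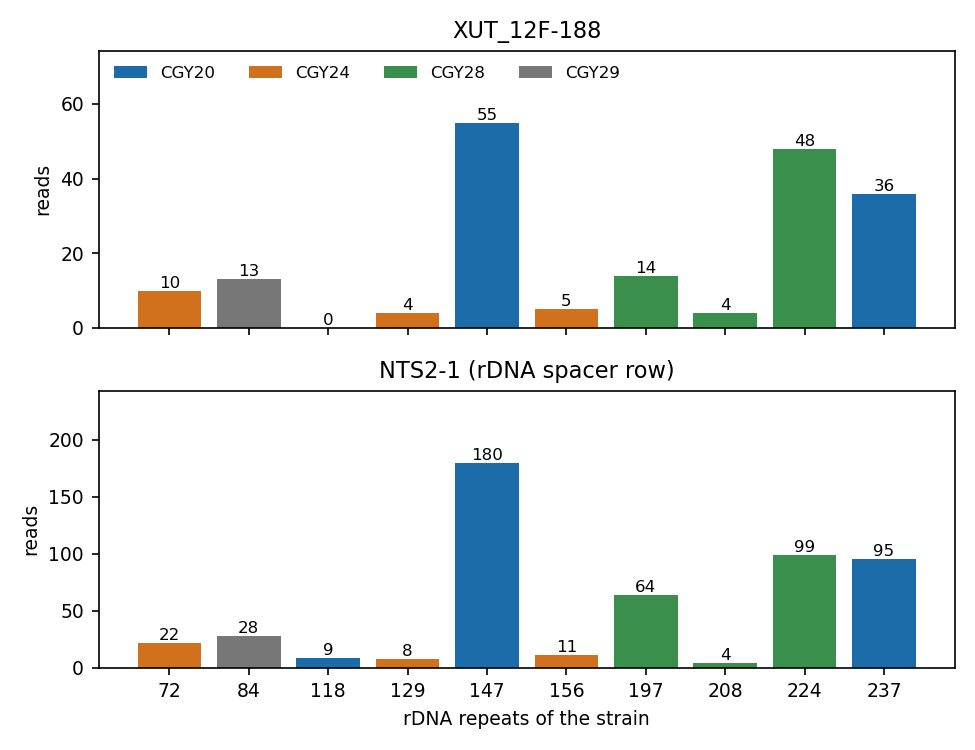
Reads per library of XUT_12F-188 (upper panel) and of the spacer row NTS2-1 (lower panel) in the 10 strains, in order of rDNA repeats and coloured by series. The strains with 147, 224 and 237 repeats are highest in both panels, at 36 to 55 and 95 to 180 reads.

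Most XUTs had too few reads for their spread between strains to be judged. For the 254 XUTs with 1 read in all, the ratio lies near 1 whatever the strains do. Under 1 read per library it could still pass 3, as in 13 of 962 XUTs (1.35%), against 1.30% of all features at that level. The mean variance ratio was 1.13 for the 962 XUTs under 1 read per library, 1.13 for 158 with 1 to 2 reads, 0.912 for 72 with 2 to 5 and 1.22 for 9 with 5 to 10. All features at those levels had 1.14, 1.199, 1.32 and 1.41. Among the 3 XUTs with 10 reads or more, XUT_12F-188 was the only one above 3, against 6.57% of the 2954 features with 10 to 100 reads. Those features leave out the other rows of the rDNA, where wide spread was also seen. The ratio was 65.1 for NTS2-1, 73.6 for RDN5-1, 16.9 for the frame YLR154W-C and 2.68 for NTS1-2.

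**Figure D5:**
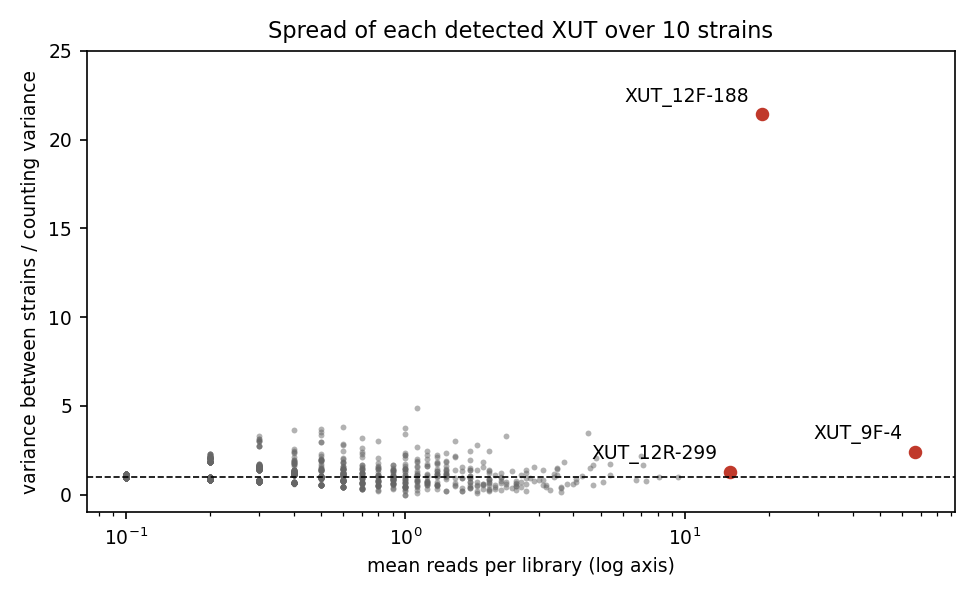
Variance between the 10 strains over the variance from read counting alone (y axis) against mean reads per library (x axis, logarithmic), 1 point per detected XUT. The dashed line at 1 is counting error only. XUT_12F-188 stands at 21.4, far above XUT_9F-4 (2.40) and XUT_12R-299 (1.30).

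Whether single XUTs changed with array length was tested with limma, as a slope of log2(value + 1) per 100 repeats across 4015 features. Only 4 XUTs had enough reads to enter: XUT_9F-4, XUT_12F-188, XUT_12R-299 and XUT_1R-18. None passed an adjusted p of 0.05, and 0 of the 4 passed an unadjusted 0.05, against 1 feature called in all (0.0249%), the reading frame YDR154C, and 4.71% under an unadjusted 0.05. The slope of XUT_12F-188 was 1.27 ± 0.98 (SE, 95% interval -0.97 to 3.52, limma adjusted p = 0.987). That of XUT_9F-4 was -0.15 ± 0.13 (interval -0.42 to 0.13), that of XUT_1R-18 was -0.18 ± 0.31 (-0.82 to 0.46) and that of XUT_12R-299 was -0.08 ± 0.25 (-0.58 to 0.43), each with the same limma adjusted p. The intervals leave room for slopes in both directions, so these values do not show that array length has no effect. The edgeR quasi-likelihood test called 3 features (0.0747%) and DESeq2 called 2 (0.0498%), with 0 XUTs in each. An unadjusted 0.05 was passed by 4.63% of features in edgeR and 2.44% in DESeq2, and by 0 XUTs in both.

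With all detected features admitted, 10581 were tested and limma called 4 (0.0378%), none of them among the 1204 XUTs. An unadjusted p under 0.05 was reached by 38 XUTs (3.16%), against 4.49% of all features. Slopes were positive for 621 (51.6%), against 50.1% of all features. Most of these XUTs have under 1 read per library, so all but large changes in them were not detectable at this depth.

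The strain series were compared with limma's moderated F test over the 9 strains of CGY20, CGY24 and CGY28, which had 3 strains each. It called 0 of 3959 features (0%), while 4.87% reached an unadjusted 0.05. Of the 4 XUTs tested, 0 were called and XUT_9F-4 had the lowest p, 0.0399 unadjusted and 0.957 after limma adjustment. Its normalised read count was 71.6 ± 2.83 in CGY20, 74.8 ± 2.98 in CGY24 and 56.2 ± 11.97 in CGY28 (SD, 3 strains each). In CGY28 it was 69.4 at 197 repeats, 46.1 at 208 and 53.2 at 224, so 1 CGY28 strain overlapped CGY20. XUT_12F-188 had 29.03 ± 27.1 in CGY20, 6.20 ± 2.54 in CGY24 and 22.8 ± 24.166 in CGY28, and the spread within CGY20 and CGY28 was as large as the levels. The edgeR test called 0 features and DESeq2 called 4 (0.101%), with 0 XUTs in each. An unadjusted 0.05 was passed by 4.95% of features and 1 XUT in edgeR, and by 1.36% and 0 XUTs in DESeq2. With all detected features admitted limma called 13 of 10417 (0.125%), with 0 of 1178 XUTs called and 29 of them (2.46%) under an unadjusted 0.05, against 4.5% of all features.

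Genes that make or destroy such transcripts were examined by the same slopes, over 66 genes of 5′ to 3′ decay, nonsense-mediated decay, the exosome, early termination, the Set1 complex, gene-body chromatin and RNA export. In total RNA limma tested 54 and called none (background 0.0249%). There were 26 positive and 28 negative slopes, a median of -0.01, and 2 slopes with an unadjusted p under 0.05. Over all features 49.8% of slopes were positive and 4.71% reached that p. XRN1 itself had 350, 334, 293, 309, 308, 293, 268, 305, 298 and 309 reads in order of repeats, and a slope of -0.04 ± 0.08. These are reads not scaled for depth, and the highest came from the libraries with the most reads outside the rDNA. In polyA RNA all 66 were tested with limma, with 0 called and 7 under an unadjusted 0.05. The background there was 0% called and 5.63% under an unadjusted 0.05. Slopes were negative for 52 of 66, with a median of -0.06 against -0.02 over all genes, of which 40.6% were positive. With series as a covariate 39 were negative and the median was -0.03, against 0.02 over all genes, of which 57.1% were then positive. In that fit 1 of the 66 had an unadjusted p under 0.05, against 1.91% of all genes. XRN1 averaged 48.4 TPM with a slope of 0.02 ± 0.07. The polyA library of 208 repeats was the lowest of all in most of the 66 genes, such as LSM1 (113 TPM). It was the highest in a few, such as SWD2 (43.7 TPM). Slopes in polyA RNA without this library were not fitted.

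The decay genes with the lowest p differed between the assays. In total RNA RRP6, the nuclear exosome exonuclease, had a slope of -0.47 ± 0.19, and LSM7, of the Lsm ring that promotes decapping, 0.54 ± 0.24. The exosome core genes RRP43 and RRP46 had -0.58 ± 0.30 and 0.57 ± 0.34. The adjusted p of all 4 was 0.987 with limma. With series as a covariate the slope of RRP6 was -0.13 ± 0.29 and that of LSM7 was 0.65 ± 0.40. The slope of RRP43 was then -1.05 ± 0.47 and that of RRP46 was 0.23 ± 0.53. In polyA RNA LSM6 had -0.16 ± 0.05, SWD2 of the Set1 complex 0.19 ± 0.07, NRD1 of the early termination complex 0.17 ± 0.06, and LRP1, a partner of Rrp6, -0.24 ± 0.10. Their limma adjusted p ran from 0.702 upward. With series as a covariate NRD1 had 0.085 ± 0.11, LSM6 -0.19 ± 0.08 and LRP1 -0.17 ± 0.15. The slope of LSM7 in polyA RNA, without the covariate, was -0.17 ± 0.07, of the other sign than in total RNA.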

How the data were processed

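RNA was isolated by acid phenol and column, DNase-treated and built into directional libraries, per the labels' protocols. The submitters' processing notes name bcl2fastq, Salmon 0.8.1, DESeq2 and the sacCer3 build. The sources used here do not name the counter of the total RNA reads. The deposited total RNA values are a normalised signal, and the deposited polyA values are TPM, made by the authors.

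Each total RNA library was divided by its smallest value above 0, and 100% of values came out within 0.001 of a whole number. These are called reads, but whole numbers do not show that they are raw counts. All values of RDN18-1 and RDN25-1 end in 0, such as 1377370 and 2242460 at 72 repeats, so values may have been rounded beforehand. The counting intervals and variance ratios treat them as counts. The 45 rows of the rDNA were left out of the denominators and tests, but XUT_12F-188 was kept. Slopes and series differences were fitted with limma 3.58.1 in R 4.3.3 (log2(value + 1), abundance trend, robust moderation) for features kept by filterByExpr of edgeR on the reads, and in polyA RNA for genes averaging 1 TPM or more. Alternatives were edgeR 4.0.16, DESeq2 1.42.0, other pseudocounts, filters, scalings and covariates, and leaving out each strain. Adjusted p-values use the Benjamini-Hochberg method at 0.05. Intervals were computed in Python 3.11.15 with scipy 1.17.1. The fits were checked on simulated data.

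The XUTs, gene lists and tests were chosen with earlier results of these data known. Named XUTs are the 12 with the highest mean share, those called or lowest in p, and those with the widest spread; the 3 further XUTs of chromosome I and those with equal values were named after their values were seen. Of the decay genes, XRN1 and the 4 lowest in p per assay are named.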

Additional observations from a re-analysis of the deposited data

How the results depend on the processing

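The median XUT share of 0.205% moved to 0.229% with reads at protein-coding frames as the denominator, to 0.0121% of all reads with the rDNA included and to 0.191% without the most abundant XUT. It was 0.202% without the XUT listed in the rDNA, an alternative chosen after seeing the data, and 0.204% to 0.206% with each strain left out. The figure with the rDNA included could be too low, since rDNA reads may have been counted at more than a single reference copy. No XUT was called in any of the alternatives of the slope or series tests. The slope of XUT_12R-299 turned from -0.08 to 0.18 with series as a covariate, and to 0.030 without the strain of 72 repeats and 0.10 without that of 224, in a range of -0.23 to 0.10 with each strain left out. The slope of XUT_1R-18 turned from -0.18 to 0.030 with series as a covariate and to 0.0032 without the strain of 197 repeats, in a range of -0.36 to 0.0032. The slope of XUT_9F-4 (-0.15) kept its sign, from -0.29 without the strain of 84 repeats to -0.063 without that of 208. That of XUT_12F-188 (1.27) ran from 0.81 without the strain of 118 repeats to 1.67 without that of 72, and was 1.98 with series as a covariate. The cause was not tested. No decay gene was called under any alternative in total RNA. In polyA RNA series as a covariate was the only alternative run, and no decay gene was called there either. No paired analysis was possible because each strain has 1 total RNA library and XUTs are not among the polyA rows used here. Depth limits what can be seen, since 962 of the 1204 XUTs had a mean under 1 read per library.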

Other observations

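Some XUTs with a low mean had most of their reads in a few strains. XUT_2R-65 had 7 reads at 84 repeats, 4 at 237 and 0 in all other libraries, a variance 4.88 times counting variance. XUT_9F-213 had 8 reads at 72 repeats, 11 at 129 and 10 at 224, but 1 at 84, 156, 208 and 237, with a ratio of 3.45. Both were picked after their values were seen. Among XUTs with 1 to 2 reads per library, as XUT_2R-65, 4 of 158 (2.53%) had a ratio over 3, against 4.30% of all features at that level. With 2 to 5 reads, as XUT_9F-213, 2 of 72 did (2.78%), against 3.84%.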
